A study of Mus musculus with 16 samples.

Results

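Neurotrophins, their receptors and the secretory protein Vgf were examined in hippocampal RNA of mice. The set comprised 6 genes: Bdnf, Ntf3, Ntrk2, Ntrk3, Ngfr and Vgf. Its members were all array probes that the platform annotation assigns to one of these symbols, which gave 12 of the 25697 probes, for 5 of the 16593 genes measured. Bdnf had 3 probes, Ntrk2 had 3, Ntrk3 had 4, and Ngfr and Vgf had 1 each. Ntf3 had 0 probes by symbol, by gene ID and by RefSeq transcript, so that neurotrophin-3 was not analysed here.

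The samples were male Swiss-Webster mice of lines bred for high (HA) or low (LA) analgesia after swim stress. They were given desipramine (DMI), a tricyclic antidepressant that blocks noradrenaline reuptake, or saline, and all mice received 21 injections. The groups were HA mice given DMI at 7.5 mg/kg/day, HA mice given saline, LA mice given the same dose of DMI and LA mice given saline, all aged 15 weeks by the labels, although the study's methods give other ages. Each group had 12 mice and 4 arrays (Illumina MouseRef-8 v2), and each array held RNA pooled from 3 mice. Each phenotype is represented by a single bred line, so that a difference between HA and LA cannot be told apart from drift during breeding.

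Neurotrophins are secreted proteins that sustain the survival, growth and synaptic plasticity of neurons. Bdnf signals mainly through the tyrosine kinase receptor TrkB (gene Ntrk2) and neurotrophin-3 through TrkC (Ntrk3), while the p75 receptor (Ngfr) binds all mature neurotrophins and, more tightly, their uncleaved precursors. Vgf is a peptide precursor of the regulated secretory pathway whose gene is induced by nerve growth factor and by Bdnf. In the hippocampus Bdnf transcription follows neuronal activity, in part through cyclic AMP response elements in its promoters, and antidepressants have often been reported to raise it.

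The promoter table of RefSeq (build GRCm38.p6) held 11 windows for 4 of the members, of which 7 belong to Bdnf, a gene with many alternative first exons. The 250 bases before each start were searched on both strands for the half-site CGTCA of the cyclic AMP response element and for the palindrome TGACGTCA, which contains it. The half-site was in 17.8% and the palindrome in 1.55% of all 32851 windows. Only 1 of the 11 member windows held the half-site and none held the palindrome. That Bdnf window is shown, with the half-site in capitals, beside the Ntrk2 window, which held no match. Ntrk2 is a receptor gene whose brightest probe differed between the lines. Ntrk3 and Vgf, whose brightest probes also differed, had 0 windows. A match is a description of these letters and not a mapped binding site.
Bdnf, chr2:109692186-109692435, plus strand: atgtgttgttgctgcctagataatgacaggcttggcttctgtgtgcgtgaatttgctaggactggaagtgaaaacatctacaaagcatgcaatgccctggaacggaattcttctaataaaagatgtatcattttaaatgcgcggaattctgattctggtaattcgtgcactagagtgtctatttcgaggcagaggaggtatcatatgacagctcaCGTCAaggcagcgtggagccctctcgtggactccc
Ntrk2, chr13:58806319-58806568, plus strand: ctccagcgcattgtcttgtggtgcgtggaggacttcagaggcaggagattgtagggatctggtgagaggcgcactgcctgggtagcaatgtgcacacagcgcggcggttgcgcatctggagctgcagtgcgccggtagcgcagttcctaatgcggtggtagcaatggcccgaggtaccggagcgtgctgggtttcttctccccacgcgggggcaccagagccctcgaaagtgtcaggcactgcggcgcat
The transcript that each probe was designed on is given by the annotation, while the exons it matches were not given in the sources used here.

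Values are the log2 signals that the study normalized over all 16 arrays, so that a difference of 1 is a doubling of signal, and the array median was 6.69. Each signal carries a detection p, a comparison with negative control beads on that array, and a probe counts as detected there when this is under 0.05. Of the 12 probes, 9 were detected on all 16 arrays and all 12 on at least 4 arrays. The 3 others were 2 of Bdnf and the probe of Ngfr. Differences were tested with limma over all probes, with p-values adjusted by Benjamini-Hochberg, and a probe passed at an adjusted p under 0.05 with a log2 difference over 0.5 in size.

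The arrays were alike in the number of probes detected, 12900 to 13886, and in correlations of 0.989 to 0.996 between arrays of a group. Their mean signal before normalization was less alike. It ranged between 240 and 421 on HA arrays and between 247 and 369 on LA arrays. Markers of hippocampal principal cells were present, since 12 of the 14 measured were detected on all arrays and only Neurod6 and Tdo2 on none. The 4 HA saline arrays stood apart in markers of neighbouring tissue. Their summed level of 18 thalamic and habenular genes, as the mean log2 value after centring each gene, was 0.48 to 0.54, against -0.30 to 0.05 in HA DMI arrays, -0.45 to 0.03 in LA DMI arrays and -0.46 to 0.21 in LA saline arrays. The astrocyte list (14 genes) was likewise at 0.08 to 0.12, against -0.14 to 0.02 in HA DMI arrays, -0.06 to -0.01 in LA DMI arrays and -0.09 to 0.03 in LA saline arrays. Between the lines, all 12 choroid plexus genes were higher in HA over both treatments at an adjusted p under 0.05 (median 0.73, 10 past both limits). All 8 detected striatal genes were lower in HA on saline arrays (median -0.61, 3 past both limits), where the list was at -0.19 to -0.14, against -0.30 to 1.25 on LA saline arrays. Their part in the differences between lines that follow was not tested. In whole tissue, fewer cells of a type and less RNA per cell cannot be told apart.

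At their brightest probes and in the mean of both treatments, Ntrk3 and Vgf were lower and Ntrk2 was higher in HA than in LA hippocampus. On DMI arrays alone none of these had an adjusted p under 0.05, and no other Ntrk2 probe had one in the mean of both treatments. Between DMI and saline arrays no member had an adjusted p under 0.05 in either line. In the mean of both treatments, with 8 arrays a line, 5 of the 12 probes had an adjusted p under 0.05, of which 4 were lower in HA (3 of Ntrk3 and that of Vgf) and 1 was higher (Ntrk2). The same held for 11.8% of all probes and for 20.2% of the 14583 probes detected on at least 4 arrays. None of the 12 also exceeded the size limit, which 0.907% of all probes did, and 7 had an unadjusted p under 0.05 (23.3%). On saline arrays 3 of the 12 had an adjusted p under 0.05 (6.33% of all probes) and 1, that of Vgf, passed with the size limit (1.22%), while 6 had an unadjusted p under 0.05 (18.1%). On DMI arrays 0 of the 12 had an adjusted p under 0.05 (4.92%, or 0.872% with the size limit) and 1 had an unadjusted p under 0.05 (16.3%). Scaling arrays to a common median in place of quantile normalization shifted HA minus LA by 0.10 on the log2 scale at the median detected probe, and 85.6% of calls were then higher in HA, against 49.8%. The brightest probes were then at -0.12 for Ntrk3, -0.20 for Vgf and 0.47 for Ntrk2. Of these only Ntrk2 had a limma adjusted p under 0.05 (0.0220). Relative to that shift they were at -0.22, -0.29 and 0.37, and these relative values were not tested.

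**Figure D1:**
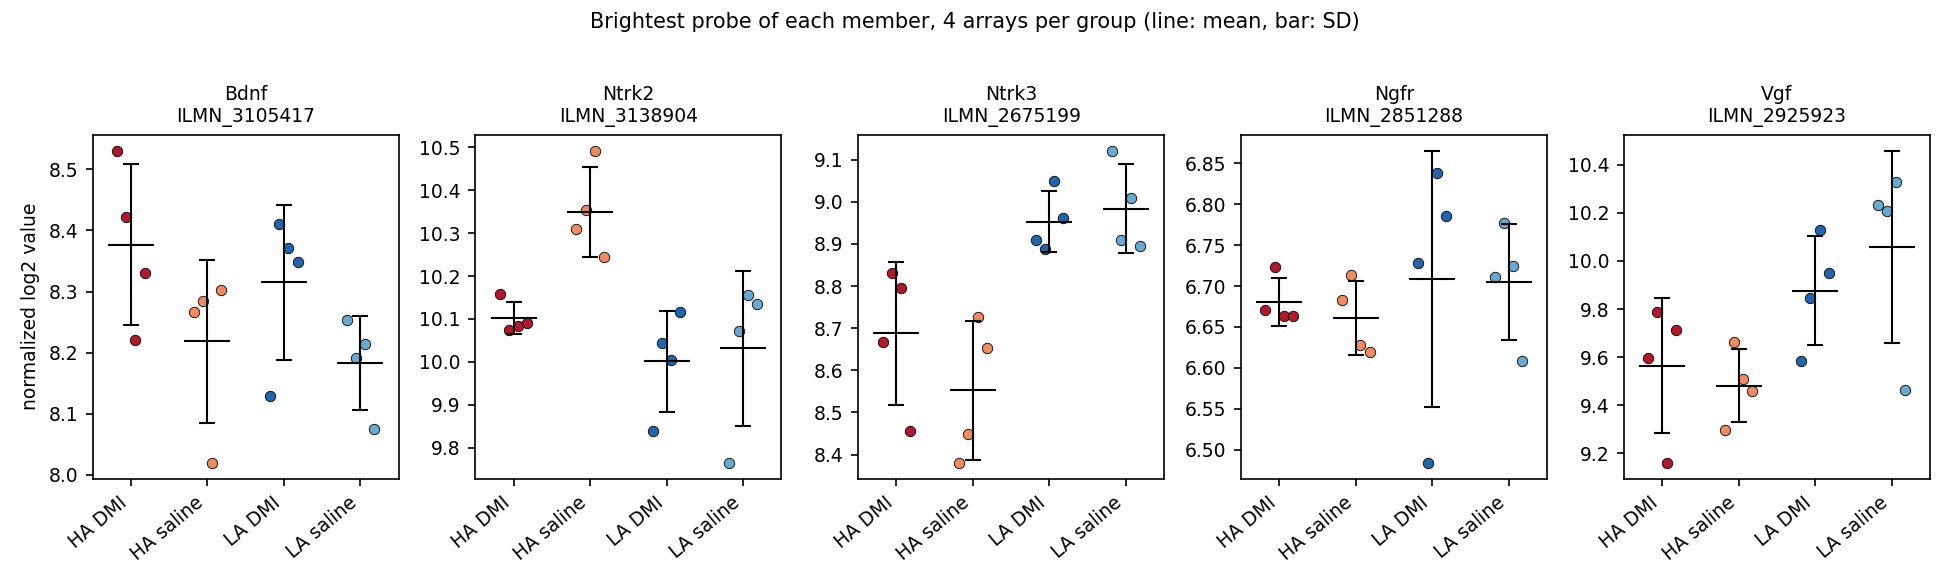
Normalized log2 value of the brightest probe of each gene on each array, by group (points), with the group mean and SD (n = 4). HA saline arrays lie at 10.24 to 10.49 for Ntrk2, above every other array, and the 8 HA arrays of Ntrk3 lie below the 8 LA arrays.

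Bdnf, the ligand of TrkB, gave a clear signal at 1 probe only (ILMN_3105417, designed on NM_001048141), which was detected on all arrays. Its log2 values were 8.53, 8.42, 8.22 and 8.33 on HA DMI arrays, against 8.27, 8.28, 8.02 and 8.30 on HA saline arrays. In LA mice they were 8.13, 8.41, 8.37 and 8.35 with DMI, against 8.25, 8.19, 8.21 and 8.07 with saline. DMI arrays were thus mostly higher in both lines, but the groups overlapped in each.

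The log2 difference of DMI minus saline for Bdnf was 0.16 ± 0.077 (SE) in HA mice and 0.13 ± 0.077 in LA mice, as the arrays are labelled, and neither passed (limma, adjusted p = 0.605 and 0.677). The direction of DMI minus saline follows the sample labels, and over the probes that the study tabulated it runs opposite to the direction that the study gives. Which arrays are called DMI and saline in the comparisons between lines rests on the same labels, while the mean over both treatments does not depend on them. Over both lines the Bdnf difference was 0.14 ± 0.055 (95% interval 0.03 to 0.26, unadjusted p = 0.0166 by limma), with an adjusted p of 0.319. HA minus LA of Bdnf over both treatments was 0.05 ± 0.055 (95% interval -0.07 to 0.16, limma adjusted p = 0.682). Scaled to a common median it was 0.25 (limma adjusted p = 0.112). Relative to the shift of all detected probes it was 0.15, which was not tested.

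Both other Bdnf probes, designed on NM_007540, lay near background. ILMN_1246842 was detected on 9 of the 16 arrays and ILMN_1214228 on 7, of which 2 were HA DMI, 4 HA saline and 1 LA DMI, with 0 of LA saline. At ILMN_1214228 the mean was 6.73 on HA saline arrays and 6.63 on LA saline arrays, where it was not above background, and the difference did not pass (limma adjusted p = 0.174). Against a detection floor the HA saline mean was 1.04-fold higher, with no allowance for the spread between arrays. The floor was the lowest detected signal of each LA saline array or the probe's own, whichever was higher. The 3 Bdnf probes did not vary together over the 16 arrays, with Pearson r of -0.05, -0.34 and -0.47 between them.

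Ntrk2 encodes TrkB, which exists as a full kinase receptor of neurons and as truncated forms that are abundant on astrocytes. Its brightest probe (ILMN_3138904, NM_001025074) read 10.16, 10.08, 10.08 and 10.09 on HA DMI arrays, against 10.31, 10.35, 10.49 and 10.24 on HA saline arrays. LA DMI arrays read between 9.84 and 10.12, against 9.76, 10.07, 10.16 and 10.13 on LA saline arrays. The 4 HA saline arrays thus lay above all 12 others, and the other 3 groups overlapped. The share of all probes with this pattern was not counted. The Bdnf probe ILMN_1214228, near background, had it too, with HA saline arrays at 6.71 or more and all others at 6.70 or less.

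On saline arrays Ntrk2 was 0.32 ± 0.079 (SE) higher on the log2 scale in HA than in LA mice, a fold of 1.25 (limma, adjusted p = 0.0200). There 4 of 4 HA arrays lay above every LA array, and 10.4% of all probes had no overlap in this comparison. On DMI arrays HA minus LA was 0.10 ± 0.079 (95% interval -0.06 to 0.27, limma adjusted p = 0.602), and over both treatments it was 0.21 ± 0.056 (adjusted p = 0.0181). In HA mice DMI minus saline was -0.25 ± 0.079 (95% interval -0.41 to -0.08). The groups did not overlap there, as at 3 of the 12 member probes and at 5.8% of all probes, but the difference did not pass (limma, unadjusted p = 0.00563, adjusted p = 0.253). In LA mice it was -0.03 ± 0.079, with overlap at this and all other member probes (3.95% of all probes had none; limma adjusted p = 0.957). The difference between the lines in DMI minus saline was -0.22 ± 0.11 (limma, unadjusted p = 0.0665, adjusted p = 0.749).

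The HA saline arrays that were high for Ntrk2 are those whose group mean was highest for the thalamic (0.51), choroid plexus (0.47), leptomeningeal (0.23), oligodendrocyte (0.16) and astrocyte (0.10) lists. Their group mean was lowest for the principal cell (-0.12), neocortical (-0.10), interneuron (-0.05) and blood (-0.01) lists. LA saline arrays reached up to 0.35 for the leptomeningeal and 0.22 for the oligodendrocyte list, above the highest HA saline arrays (0.25 and 0.21). The part of these cells in the Ntrk2 difference was not tested. Without LA saline replicate 1 the limma adjusted p on saline arrays was 0.0513 (log2 difference 0.23) and without HA saline replicate 3 it was 0.0729 (0.27). The log2 difference ranged between 0.23 and 0.36 over all single arrays left out.

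The other Ntrk2 probes did not set the HA saline arrays apart. ILMN_3061460, of the same transcript, averaged 8.46 ± 0.17 on HA DMI arrays, 8.33 ± 0.21 on HA saline arrays, 8.28 ± 0.095 on LA DMI arrays and 8.25 ± 0.14 on LA saline arrays (SD, n = 4). ILMN_2705460, of NM_008745, averaged 7.17 ± 0.14 on HA DMI arrays, 7.20 ± 0.18 on HA saline arrays, 7.24 ± 0.23 on LA DMI arrays and 7.32 ± 0.18 on LA saline arrays. Neither had an unadjusted p under 0.05 in any of the 7 comparisons. For HA minus LA over both treatments ILMN_3061460 had the sign of the brightest probe, at 0.13 ± 0.071 (limma adjusted p = 0.298), and scaled to a common median it was 0.34 (limma adjusted p = 0.0348). ILMN_2705460 was at -0.09 ± 0.080 (limma adjusted p = 0.561). Over the 16 arrays the brightest probe had a Pearson r of -0.13 with ILMN_3061460 and of -0.24 with ILMN_2705460.

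**Figure D2:**
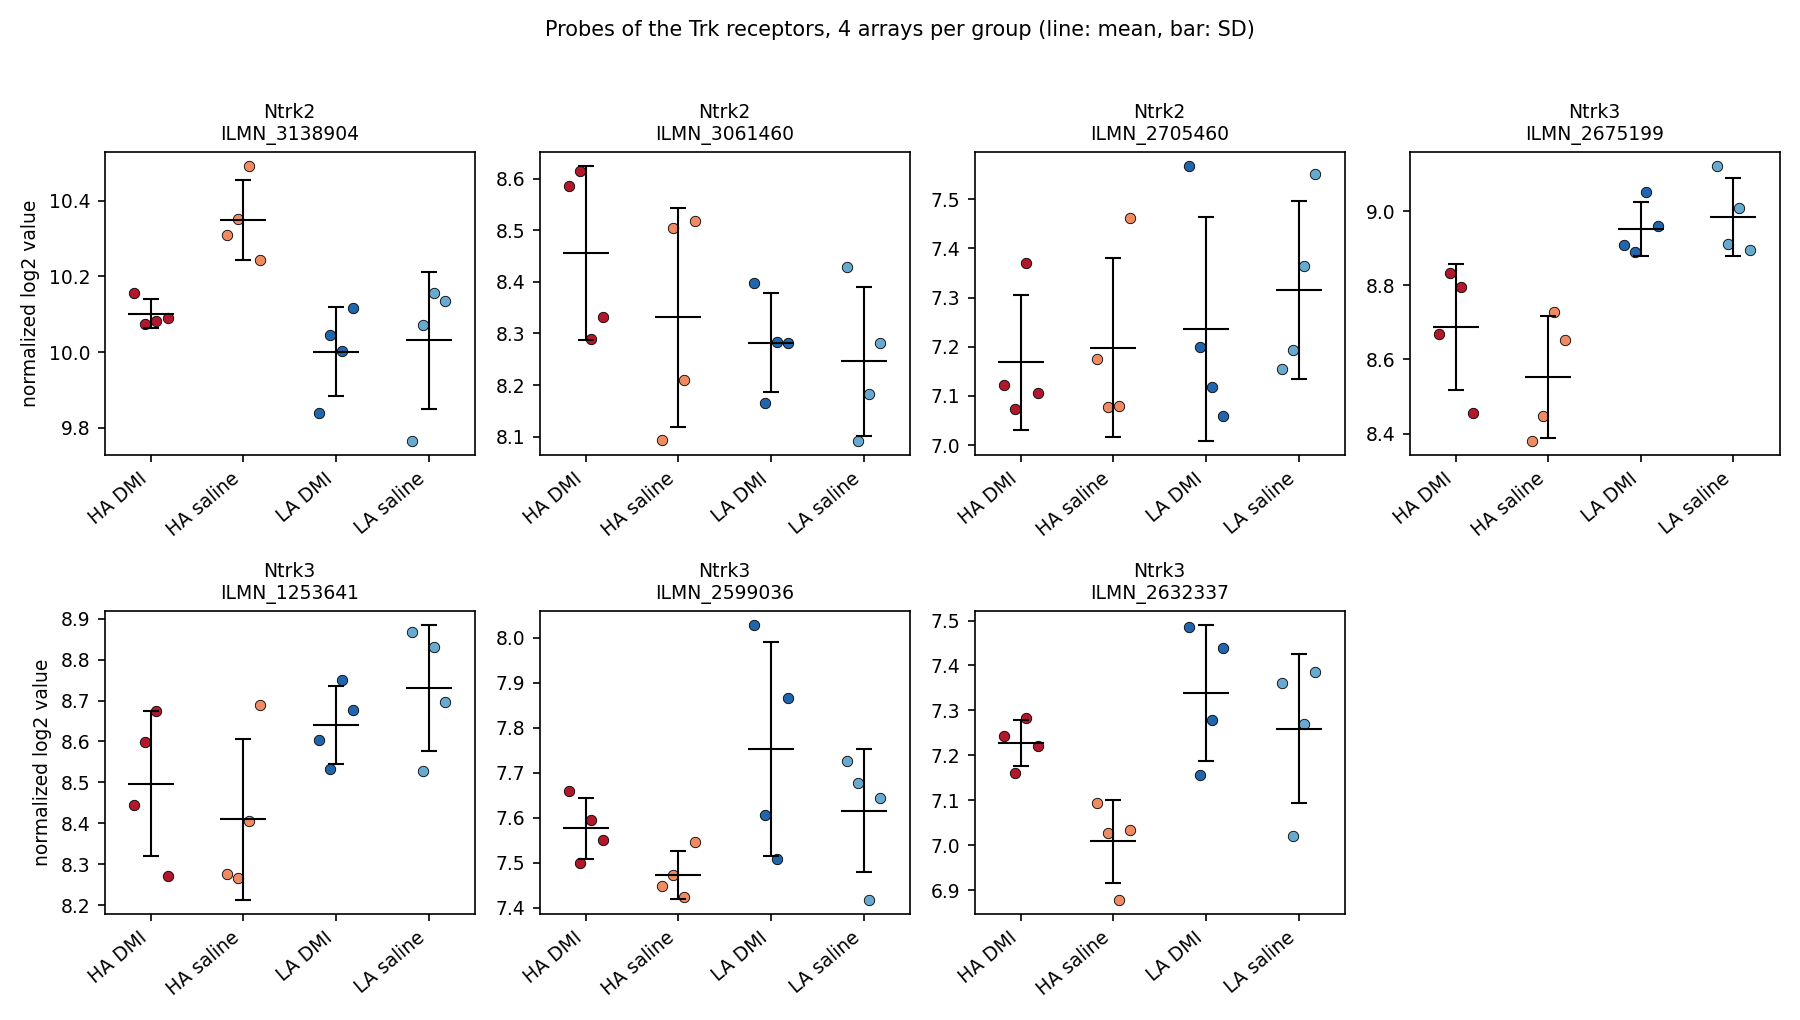
Normalized log2 value at the 3 Ntrk2 probes and 4 Ntrk3 probes on each array (points), with group mean and SD (n = 4). Only ILMN_3138904 of Ntrk2 sets the HA saline arrays above all others, while all 4 Ntrk3 probes have their lowest group mean in HA saline.

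Ntrk3 encodes TrkC, the receptor of neurotrophin-3. Its brightest probe (ILMN_2675199, NM_008746) read 8.67, 8.83, 8.80 and 8.46 on HA DMI arrays, against 8.91, 8.89, 9.05 and 8.96 on LA DMI arrays. With saline it read 8.38, 8.45, 8.73 and 8.65 in HA mice, against 9.12, 8.91, 9.01 and 8.89 in LA mice. All 8 HA arrays lay below all 8 LA arrays, which is so for 1 of the 12 member probes and for 2.05% of all probes.

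Over both treatments the Ntrk3 difference of HA minus LA was -0.35 ± 0.060 (SE, fold 0.786, 95% interval -0.48 to -0.22, limma adjusted p = 7.68e-04). On saline arrays it was -0.43 ± 0.085 (adjusted p = 0.00481) and on DMI arrays -0.26 ± 0.085 (adjusted p = 0.0908), and neither exceeded the size limit. The groups did not overlap in either, as at 3 of 12 member probes with saline (10.4% of all probes) and 1 of 12 with DMI (10.3%). DMI minus saline was 0.14 ± 0.085 in HA mice and -0.03 ± 0.085 in LA mice (limma adjusted p = 0.766 and 0.958). The difference between these, 0.17 ± 0.12, did not pass (limma adjusted p = 0.860). The line difference at this probe kept an adjusted p under 0.05 whichever single array was left out. It was lost when arrays were scaled to a common median, where HA minus LA was -0.12 (adjusted p = 0.370).

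The other 3 Ntrk3 probes had differences of the same sign and smaller size, and 2 were under 0.05 in adjusted p. Over both treatments HA minus LA was -0.23 ± 0.070 at ILMN_1253641 (NM_008746, limma adjusted p = 0.0385), -0.18 ± 0.056 at ILMN_2632337 (NM_182809, adjusted p = 0.0438) and -0.16 ± 0.064 at ILMN_2599036 (NM_182809, adjusted p = 0.128). The first lost its adjusted p under 0.05 in 12 and the second in 14 of 22 other settings. The probes that share a transcript varied together, with a Pearson r of 0.88 for the NM_008746 pair and 0.69 for the NM_182809 pair over 16 arrays, and of 0.82 and 0.49 after subtracting group means. The points share libraries and quantile normalization, and the r is a description.

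ILMN_2632337 was also the Ntrk3 probe that differed most between DMI and saline in HA mice. It read 7.24, 7.16, 7.28 and 7.22 on HA DMI arrays, against 7.09, 7.03, 6.88 and 7.03 on HA saline arrays, with no overlap. The log2 difference of 0.22 ± 0.080 did not pass (limma, unadjusted p = 0.0137, adjusted p = 0.370). In LA mice its values ranged between 7.16 and 7.48 with DMI, against 7.02 to 7.39 with saline, and overlapped.

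Ngfr, the p75 receptor, was detected on 12 of 16 arrays (4 HA DMI, 2 HA saline, 3 LA DMI and 3 LA saline). In the adult forebrain it is known mainly from cholinergic neurons of the septum, whose fibres reach the hippocampus while their RNA stays largely in the cell bodies. The probe (ILMN_2851288) averaged 6.68 ± 0.029 on HA DMI arrays, 6.66 ± 0.045 on HA saline arrays, 6.71 ± 0.16 on LA DMI arrays and 6.70 ± 0.070 on LA saline arrays (SD, n = 4). All 4 groups overlapped, and no comparison had an unadjusted p under 0.05. Of the 9 septal cholinergic markers measured, 3 (Slc18a3, Gbx1 and Zic5) were detected on 0 arrays and the others on 1 to 14, with Chat on 9 and Zic2 on 14.

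Vgf, which yields peptides released on neuronal activity, had the widest spread of the 12 probes, with an SE of 0.17 for a difference between groups. Its probe (ILMN_2925923) read 9.30, 9.66, 9.51 and 9.46 on HA saline arrays, against 10.23, 10.21, 10.33 and 9.46 on LA saline arrays. With DMI it read 9.60, 9.79, 9.16 and 9.71 in HA mice, against 9.58, 9.85, 10.13 and 9.95 in LA mice. LA arrays were mostly higher, but the lines overlapped under both treatments, with saline through LA saline replicate 4 and with DMI through LA DMI replicate 1 (9.58).

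On saline arrays Vgf was 0.58 lower in HA mice (log2 difference -0.58 ± 0.17 SE, fold 0.671, 95% interval -0.93 to -0.22), and it was the only member to pass both limits (limma adjusted p = 0.0489). This call was at its limit, since 11 of 15 other settings raised the adjusted p above 0.05. Without LA saline replicate 4 the log2 difference was -0.77 (limma adjusted p = 0.00198), and leaving out any other array of these groups ended the call. On DMI arrays HA minus LA was -0.31 ± 0.17 (adjusted p = 0.385). Over both treatments it was -0.44 ± 0.12 (adjusted p = 0.0188), which held whichever single array was left out, with a range of -0.54 to -0.38. DMI minus saline was 0.08 ± 0.17 in HA mice (95% interval -0.27 to 0.44, limma adjusted p = 0.967) and -0.18 ± 0.17 in LA mice (-0.53 to 0.17, limma adjusted p = 0.839).

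**Figure D3:**
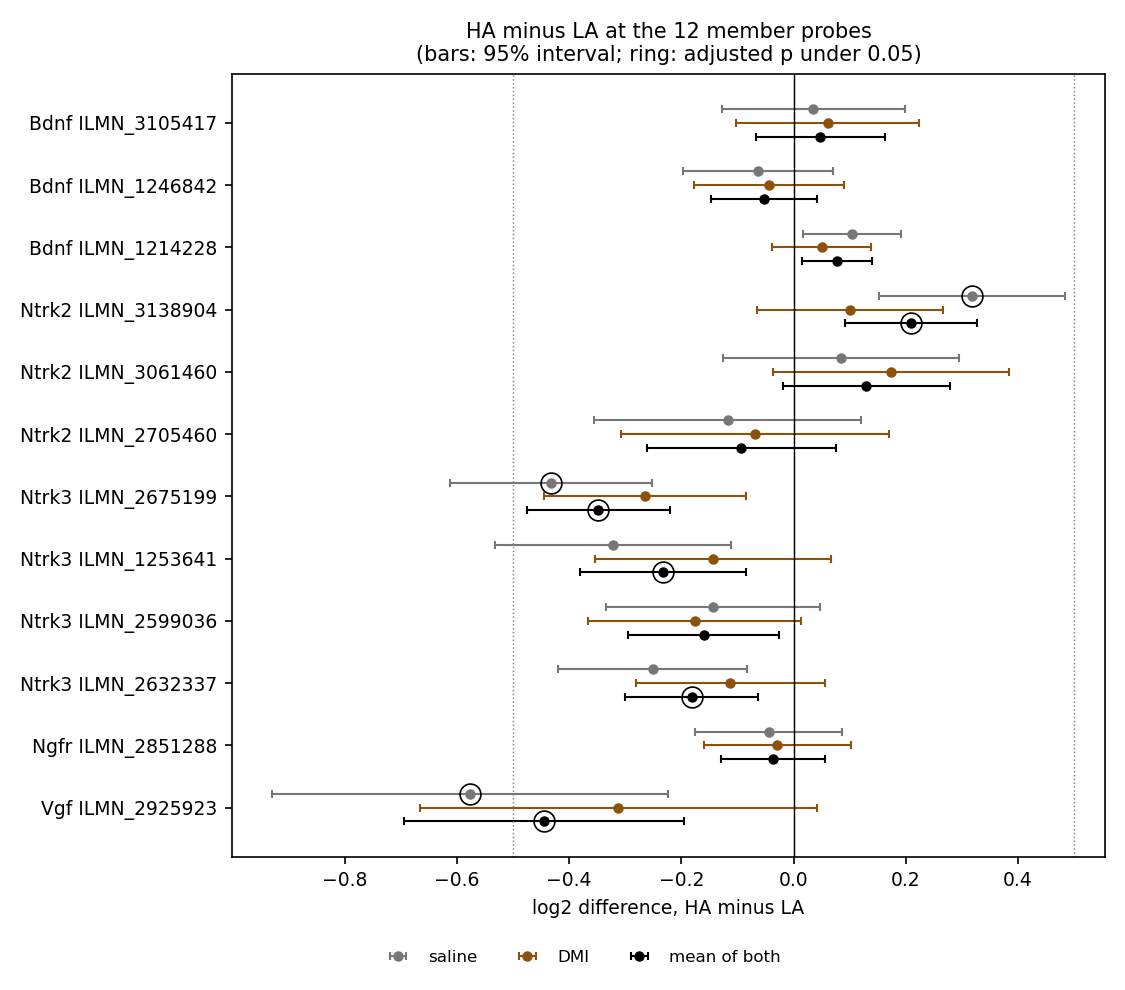
HA minus LA at the 12 member probes as limma's log2 difference with its 95% interval, on saline arrays, on DMI arrays and as the mean of both. Rings mark adjusted p under 0.05 (3 saline, 0 DMI and 5 mean comparisons) and dotted lines the size limit of 0.5.

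Between DMI and saline arrays 0 of the 12 probes had an adjusted p under 0.05 in HA mice, against 0.327% of all probes, and 0 of 12 in LA mice, against 0.0623%. With the size limit the share of all probes was 0.121% in HA and 0.0311% in LA. At an unadjusted p under 0.05 there were 2 of 12 in HA (8.57% of all probes) and 0 of 12 in LA (8.68%). The mean over both lines gave 0 of 12 (0.409%, or 0.0545% with the size limit), with 3 of 12 at an unadjusted p under 0.05 (10.2%), and the difference between the lines gave 0 of 12 (0.00389%), with 0 of 12 unadjusted (6.97%). The median log2 difference of the 12 probes was 0.09 in HA mice and -0.02 in LA mice. The median of the 14583 detected probes was 0.0042 in HA mice and 0.0011 in LA mice. Groups of 4 pools with this spread leave wide limits. For Bdnf the interval in HA mice reached from -0.01 to 0.32, so that it holds both no change and a fold of up to 1.25.

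**Figure D4:**
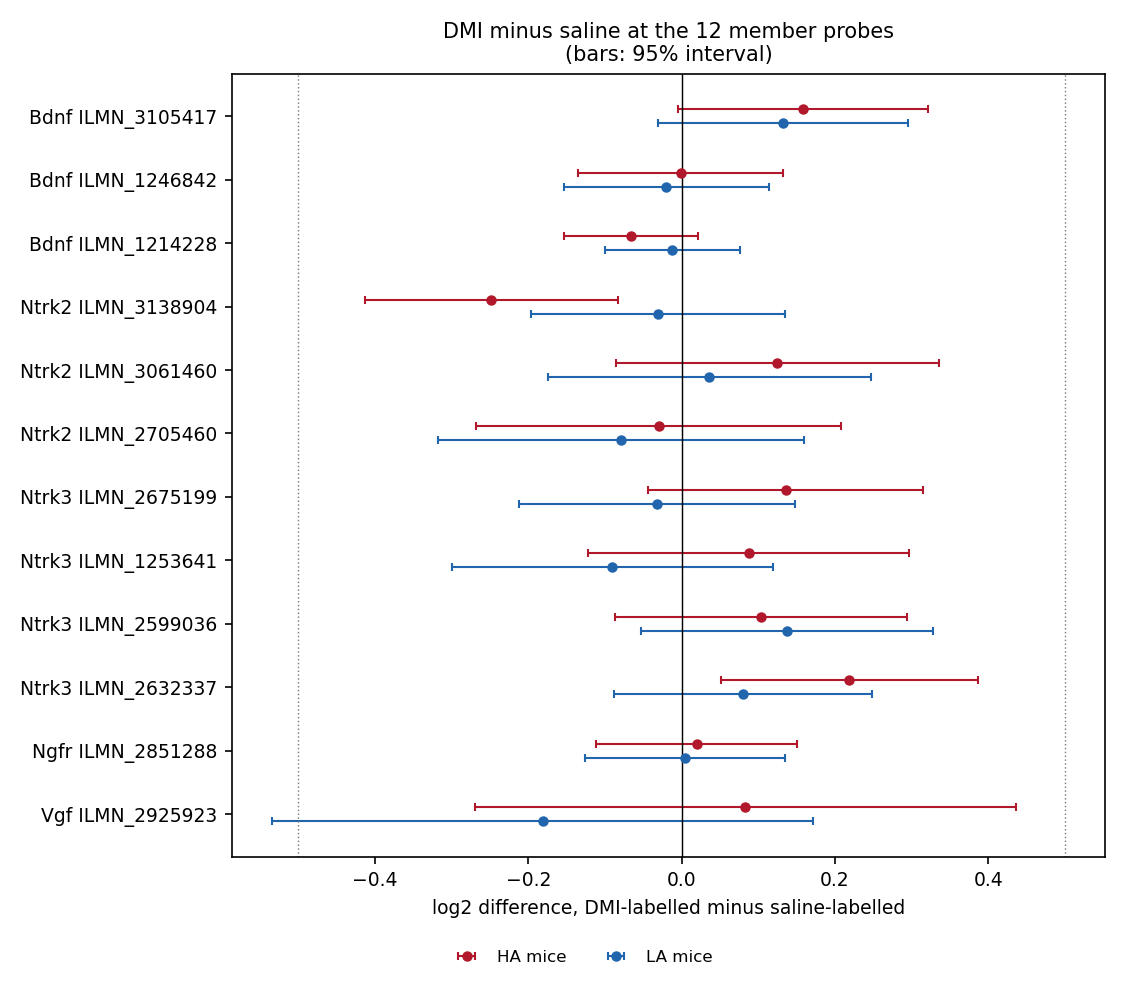
DMI-labelled minus saline-labelled arrays at the 12 member probes as limma's log2 difference with its 95% interval, in HA and LA mice. No probe had an adjusted p under 0.05, and the Ntrk2 probe ILMN_3138904 lies lowest in HA at -0.25.

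Around the members, 6 gene lists of the pathway were counted, each gene at its brightest probe where this was detected on at least 4 arrays. Counts in this and the next paragraphs are for HA minus LA over both treatments at an adjusted p under 0.05 over all 25697 probes, which 20.2% of detected probes met. Of the other ligands and receptors, 6 of 8 measured genes were detected. Sorcs1, a sorting receptor of the sortilin family, was lower in HA, at -0.26 ± 0.040 (SE, limma adjusted p = 3.01e-04). Sort1, the sortilin co-receptor of p75, was at -0.17 ± 0.072, with an adjusted p over 0.05 (0.166).

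Of 9 detected genes for processing of proneurotrophins and Vgf, 2 were higher and 1 lower in HA. Scg2, a granin stored with Vgf in dense-core vesicles, was higher by 0.36 ± 0.066 (limma adjusted p = 0.00110), and Serpini1, an inhibitor of tissue plasminogen activator, by 0.35 ± 0.10 (adjusted p = 0.0293). Pcsk7, a proprotein convertase, was lower, at -0.25 ± 0.057 (adjusted p = 0.00646), which was lost with arrays scaled to a common median (limma adjusted p = 0.478). Vgf and Scg2 thus differed in opposite directions between the lines. The list's median was 0.17, against 0.0037 for all detected probes.

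Of 34 detected Trk adaptors and kinases, 2 were higher and 4 lower in HA, with a median of -0.05. Slitrk5, a membrane protein that binds TrkB, was lower at its brightest probe, at -0.26 ± 0.043 (limma adjusted p = 5.09e-04), but its other detected probe had the opposite sign. Sh2b1, an adaptor of Trk receptors, was lower, at -0.24 ± 0.045 (adjusted p = 0.00155), and Frs3, a docking protein of Trk receptors, was higher by 0.24 ± 0.050 (adjusted p = 0.00315). With arrays scaled to a common median Slitrk5 and Sh2b1 lost these calls (limma adjusted p = 0.862 and 0.972), while Frs3 kept its own. Of 18 detected partners and effectors of p75, 1 was higher and 4 lower. Casp9, an initiator caspase, averaged 6.69 on HA DMI and 6.64 on HA saline arrays, against 8.73 on LA DMI and 8.67 on LA saline arrays, and HA minus LA over both treatments was -2.04 ± 0.039 (limma adjusted p = 2.23e-16) at a probe whose other detected probe had the opposite sign. It was detected on 3 HA DMI and 2 HA saline arrays, against 4 LA DMI and 4 LA saline arrays, so that the HA level lies near background and the size is uncertain (-3.58 under normexp background correction). Psenen, a subunit of gamma-secretase, was higher by 0.34 ± 0.089 (limma adjusted p = 0.0165).

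Of 20 detected transcription factors of the Bdnf and Vgf promoters, 1 was higher and 5 lower in HA, with a median of -0.08. Mef2c, an activity-regulated factor of neurons, was lower, at -0.70 ± 0.096 (limma adjusted p = 9.43e-05), with no overlap of the 8 arrays a line and the same sign at both other detected probes. Crtc1, a coactivator of CREB, was lower, at -0.47 ± 0.057 (adjusted p = 2.75e-05). Srf was lower, at -0.32 ± 0.048 (adjusted p = 1.90e-04), but its other detected probe had the opposite sign.

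Of 21 detected genes that neuronal activity or Trk signalling induces, 2 were higher and 7 lower in HA over both treatments, with a median of -0.17. On saline arrays 6 were lower and 0 higher (median -0.20), and on DMI arrays 1 was lower and 0 higher (median -0.02). The HA saline arrays are those that stood apart in markers, whose part in this was not tested. For the difference between these contrasts 0 of the 21 had a limma adjusted p under 0.05. An unadjusted p under 0.05 was found for 8, as for 6.97% of all probes and 10.2% of detected probes. Scaled to a common median, 5 had an adjusted p under 0.05, of which 2 were among these 9 with the same sign. Arc, a synaptic immediate early gene, was lower, at -0.57 ± 0.13 (limma adjusted p = 0.00668). It averaged 9.25 on HA DMI and 8.46 on HA saline arrays, against 9.41 on LA DMI and 9.44 on LA saline arrays, so that the gap lay mostly on saline arrays. Egr1 was lower, at -0.48 ± 0.083 (adjusted p = 7.68e-04), Egr2, like it a zinc finger factor, at -0.20 ± 0.036 (adjusted p = 9.14e-04), and the MAP kinase phosphatase Dusp4 at -0.17 ± 0.035 (adjusted p = 0.00265). Egr2 averaged 7.10 on HA DMI and 6.89 on HA saline arrays, against 7.14 on LA DMI and 7.26 on LA saline arrays. Dusp4 averaged 7.34 on HA DMI and 7.29 on HA saline arrays, against 7.52 on LA DMI and 7.45 on LA saline arrays. With arrays scaled to a common median Arc, Egr1 and Dusp4 lost these calls (limma adjusted p = 0.108, 0.0780 and 0.668), while Egr2 kept its own.

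Between DMI and saline arrays no list gene had an adjusted p under 0.05 in either line. Among Trk adaptors in HA mice, Pik3r2, a regulatory subunit of PI3 kinase, was at 0.24 ± 0.064 (limma adjusted p = 0.144), and Gab1, a docking protein that recruits it, at -0.31 ± 0.086 (adjusted p = 0.158). With HA arrays alone 3 genes of this list had an adjusted p under 0.05, Gab1 among them (limma adjusted p = 0.00528). The share of all probes called with HA arrays alone is not given here. In LA mice the kinase Mtor was at -0.24 ± 0.081 (adjusted p = 0.378) and the histone deacetylase Hdac5 at -0.21 ± 0.063 (adjusted p = 0.297).

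In HA mice, as the arrays are labelled, 18 of the 21 activity and Trk induced genes had a positive DMI minus saline difference. Their median was 0.28, against 0.0042 for all detected probes. None had an adjusted p under 0.05, and 13 had an unadjusted p under 0.05 with a positive sign, as had 3.84% of all probes and 843 of the 14583 detected. Cort (cortistatin, an interneuron peptide) was at 0.39 ± 0.082 (limma adjusted p = 0.0552), Junb (an AP-1 subunit) at 0.49 ± 0.11 (adjusted p = 0.0720) and Dusp6 (a phosphatase of ERK) at 0.39 ± 0.089 (adjusted p = 0.0776), each with no overlap (2.26% of all probes were higher in HA DMI without overlap). The count of 0 was unchanged in 10 of 15 other settings. It became 4 among detected probes alone, 6 with HA arrays alone and 8 with array weights, and was 0 to 2 over single arrays left out. With the replicate block it changed too. The share of all probes called under each of these settings is not given here, so that these counts have no background beside them. Cort was at 0.33 ± 0.082 in LA mice (limma adjusted p = 0.172), also with no overlap (2.08% of all probes). In LA mice 10 of the 21 were positive, with a median of -0.0033, 1 had an unadjusted p under 0.05 with a positive sign (4.39% of all probes) and none had an adjusted p under 0.05. Vgf and Bdnf, which belong to the same class of induced genes, were at 0.08 and 0.16 in HA mice. Principal cell markers (12 genes, centred) lay at 0.04 to 0.11 on HA DMI arrays, against -0.16 to -0.10 on HA saline arrays, and the part of this in the differences was not tested.

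**Figure D5:**
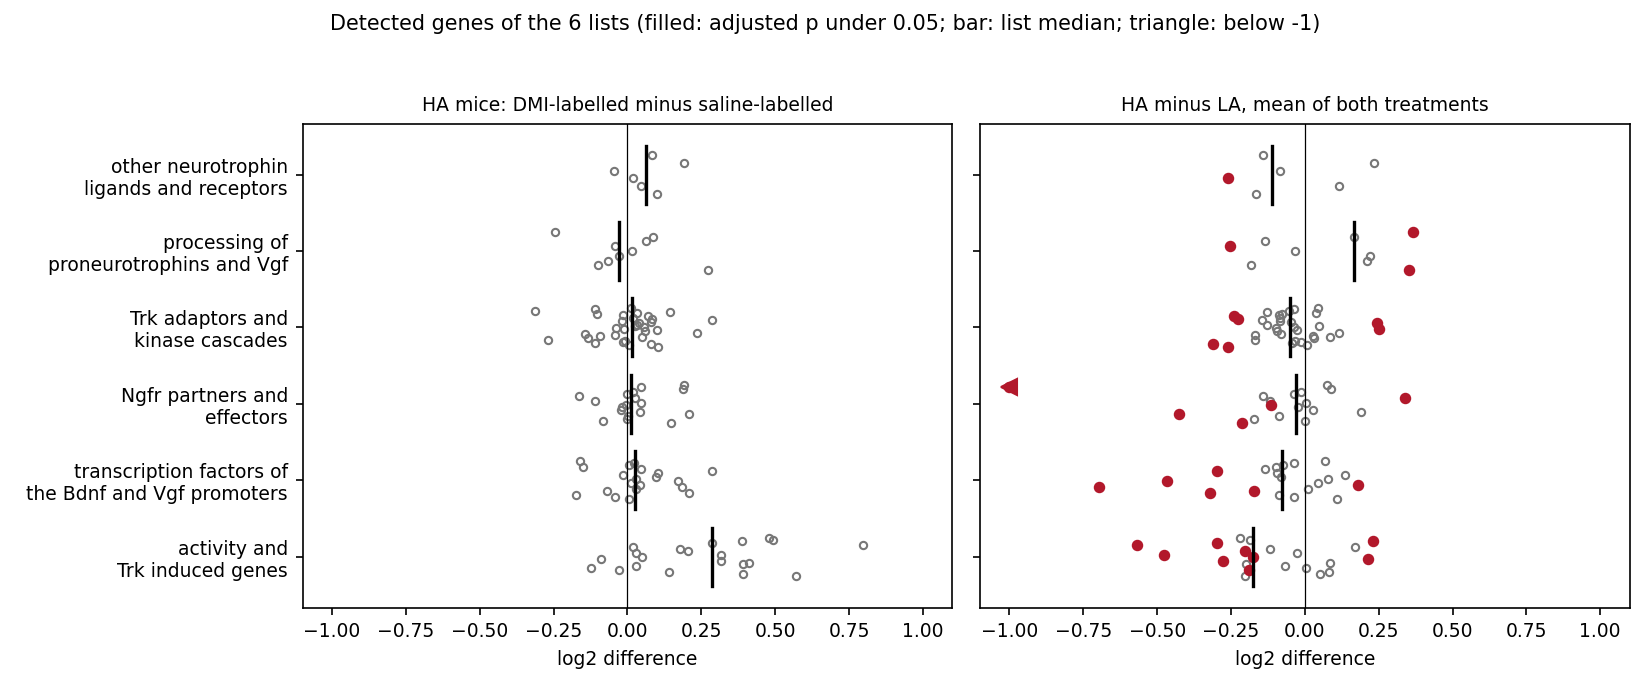
Log2 difference of each detected gene of the 6 lists in HA mice (DMI-labelled minus saline-labelled, left) and for HA minus LA over both treatments (right), with the list median as a bar. Filled points have an adjusted p under 0.05, and Casp9 at -2.04 is drawn as a triangle at the edge.

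Named genes detected on all 16 arrays (10114 probes) were ranked by their likeness to the brightest probe of each member, as Pearson r over 16 arrays. The highest of so many values are high by selection, and they were not tested. Most like Bdnf were Dnajb6 (r = 0.80), Alkbh7 (0.80) and Lsm8 (0.78). Most like Ntrk2 were Tmem255a (0.86), Snx2 (0.85) and Pdlim5 (0.84), with r of 0.67, 0.83 and 0.58 after subtracting group means. Most like Ntrk3 were Cnnm1, Slitrk5 and Ube3b, each with r = 0.94, and Slitrk5 kept an r of 0.77 after subtracting group means. Most like Vgf were H2bc12, Dlgap2 and Swt1, each with r = 0.90. The values for Ngfr, whose probe lay near background, were 0.84 for Nos3, 0.72 for Cep57 and 0.69 for Rab34. Among the members, Ntrk2 and Ntrk3 had an r of -0.64 at their brightest probes, which was -0.12 after subtracting group means. Vgf and Bdnf had an r of 0.16, which was 0.55 after subtracting group means.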

How the data were processed

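Hippocampal RNA was hybridised to 16 one-colour arrays, 4 for each of the HA DMI, HA saline, LA DMI and LA saline groups, which were taken from the sample labels. The intensity values were deposited as the reader gave them, 1 signal per probe and array, without normalization. The p-value beside each is, per the file headers, its detection p. The authors made the log2 values from these signals by log2 transformation and quantile normalization with beadarray and limma, and they differ by at most 0.0456 from a quantile normalization of the deposited signals. The reader's software, slides and scan dates were not given in the sources used here, so that no slide could be tested as a batch. Arrays report relative signal, and their number limits the precision.

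The log2 values of all 25697 probes were fitted in R 4.3.3 with limma 3.58.1 (lmFit and eBayes), with 1 mean per group, a spread shared by 16 arrays and no block. Comparisons were DMI minus saline in each line, their mean and their difference, and HA minus LA with saline, with DMI and on average. P-values were adjusted by Benjamini-Hochberg over all probes. A probe passed at an adjusted p under 0.05 and a log2 difference over 0.5 in size, and intervals are 95%. The test was run on simulated data first. Each array is a pool of 3 mice, so that the spread is that between pools.

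Of the probes 23978 had 1 gene symbol in the platform annotation, 0 had several and 1719 had none, and 23962 matched a gene ID of the GRCm38.p6 table. A gene with several probes was counted in a list at the probe with the highest mean. Named were all member probes, in each pathway list up to 3 genes with the smallest p in each of 3 comparisons and any that passed, and the 3 genes most correlated with each member. The members, lists and tests were chosen with earlier results of these data known. Alternatives were quantile normalized signals, median scaling, normexp background correction (offset 16), probes detected on at least 4 arrays, the 2 groups alone, array weights, replicate number as a block and each array left out. The treatment text of the labels names desipramine for every sample, and groups follow the treatment field.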

Additional observations from a re-analysis of the deposited data

Results flagged for a closer look

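In 4 of 48 sets of 4 arrays (12 probes in 4 groups), 1 array lay far from the other 3 of its group past the 95% critical value of Dixon's ratio, which chance gives in about 1 in 20 sets. At the brightest Bdnf probe (ILMN_3105417) HA saline replicate 3 was at 8.02, against 8.27 to 8.30 for the others. Without it the DMI minus saline difference of Bdnf in HA mice was 0.09, the lowest of all single arrays left out. At the Ntrk2 probe ILMN_2705460 HA DMI replicate 3 was at 7.37, against 7.07 to 7.12. At the Ngfr probe HA DMI replicate 2 was at 6.72, against 6.66 to 6.67, a gap near background. At the Vgf probe LA saline replicate 4 was at 9.46, against 10.21 to 10.33, and it is the array that the Vgf comparison between the lines depends on most.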

How the results depend on the processing

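Run under other settings were the brightest probes of Bdnf, Ntrk2, Ntrk3 and Vgf in all 7 comparisons, other member probes where their unadjusted p was under 0.05, and the named pathway genes. Of these 1632 values 1538 kept direction and side of the threshold. Of the rest, 57 lost and 19 gained an adjusted p under 0.05, and 18 turned sign. A value far from the threshold could hardly change side, so that the count of 1538 says little about the calls. The count of members passing both limits on saline arrays was 1 and became 0 under median scaling, with the 2 groups alone and with the replicate block, and was 0 to 1 over single arrays left out. Under normexp correction the count of 1 was Ntrk3 and not Vgf. Over both treatments the count of 0 became 1, that of Vgf, without LA saline replicate 4 and was 0 to 1 over single arrays left out. At an adjusted p under 0.05 alone the count on saline arrays was 3 and became 0 under median scaling and 1 with the 2 groups alone, with 1 to 4 over single arrays left out (1 without LA saline replicate 1 or HA saline replicate 3). Over both treatments it was 5 and became 2 under median scaling, both of Ntrk2, with 3 to 5 over single arrays left out (3 without replicate 1 or 4 of LA DMI or HA DMI, 1 or 3 of LA saline, or 2 or 3 of HA saline). The replicate numbers did not pair the samples, since the correlation of deviations in 16 pairs ranged between -0.20 and 0.16 and 1 array matched its own number best. With the replicate block the counts were 3 on saline arrays and 5 over both treatments. Of all 84 differences of the 12 member probes, 10 turned sign under median scaling, the largest of them 0.14 in size, with adjusted p of 0.458 or more before. Among the values run under all settings, median scaling turned LA DMI minus saline to 0.095 for Ntrk2, 0.058 for Ntrk3, 0.036 for Maged1 and 0.038 for Sort1, HA minus LA of Sort1 over both treatments to 0.073, DMI minus saline of Vgf over both lines to 0.026, and the difference between the lines for Bdnf to -0.013. Single arrays left out also turned signs. LA DMI minus saline ranged between -0.12 and 0.024 for Ntrk2 (above 0 without LA DMI replicate 1 or LA saline replicate 3 or 4) and between -0.065 and 0.014 for Ntrk3 (above 0 without LA saline replicate 1). HA DMI minus saline of Sorcs2 ranged between -0.069 and 0.0046 (above 0 without HA saline replicate 4), and DMI minus saline of Vgf over both lines between -0.15 and 0.018 (above 0 without HA DMI replicate 3). For Bdnf, HA minus LA ranged between -0.0010 and 0.11 on DMI arrays (below 0 without LA DMI replicate 1) and between -0.0012 and 0.10 on saline arrays (below 0 without LA saline replicate 4). The Bdnf difference between the lines ranged between -0.040 and 0.078 (below 0 without LA DMI replicate 1, HA DMI replicate 1 or HA saline replicate 3). At an adjusted p under 0.05 over both treatments, median scaling gave 5 activity genes in place of 9, with 2 shared, and 3 Trk adaptors in place of 6, with 2 shared. It gave 4 processing genes in place of 3 and 4 partners of p75 in place of 5, each with 2 shared. Transcription factors numbered 5 in place of 6, with 3 shared, and other ligands and receptors 2 in place of 1, with 1 shared. The cause was not tested. Ngfr and 2 Bdnf probes lay near background, where the arrays resolve little.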
